A study of Mus musculus with 5 samples.

Results

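The genes described are 10 of the 46959 gene symbols in the count tables: the Sprouty genes Spry1, Spry2 and Spry4, the Spred genes Spred1, Spred2 and Spred3, the PEA3-type ETS factor genes Etv1, Etv4 and Etv5, and Phlda1. They were chosen by symbol as feedback inhibitors of ERK signalling and transcription factors that ERK induces, and all 10 were abundant enough to be tested. The cells were D4m.3a, a melanoma line derived from a C57BL/6 mouse and known to carry mutant Braf, between passages 7 and 12. In caMNK cells (n = 3 libraries) the kinase MNK was constitutively active, and control cells carried the retroviral vector pBABE (n = 2). The labels give no clone number, dose of the kinase or culture dates. Each group is 1 line, so the kinase and any other change between the lines cannot be told apart, nor can fewer cells with a transcript and less of it per cell.

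ERK is the last kinase of the RAS, RAF and MEK cascade and switches on genes that then restrain the cascade. Sprouty proteins act near receptor tyrosine kinases and dampen the signal to RAS and RAF, and Spred proteins bring the RAS inactivator neurofibromin to the membrane. The PEA3 factors are activators whose genes are held silent by the repressor Capicua until ERK removes it, and PHLDA1 is a protein with a pleckstrin homology-like domain that is used as a readout of MEK and ERK activity in melanoma. MNK1 lies downstream of ERK and p38, phosphorylates the cap-binding factor eIF4E, and has also been reported to phosphorylate Sprouty2 protein.

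Library totals ran between 27827199 and 48794336 counts, and the introduced kinase was visible in its own gene: the kinase gene Mknk1 had 167, 155 and 168 CPM (TMM-scaled reads as a share of the library) in caMNK and 15.2 and 16.7 CPM in pBABE. caMNK replicate 2 stood apart from the other caMNK libraries on the second principal component of log2 CPM (-34.0, against 4.73 and 23.2 for caMNK replicates 1 and 3), an axis with 20.5% of the variance. Of 7 pigment cell markers, Mitf was measured at 5.18 CPM in caMNK and 6.09 CPM in pBABE, Pmel averaged 0.393 CPM in caMNK and 0.252 CPM in pBABE, and Sox10, Tyr and Mlana lay under 0.05 CPM on average in both groups. Tyrp1 and Dct had no count, so among these defining markers of pigment cells only Mitf was above 1 CPM. Of 3 tested fibroblast markers 1 fell, Col1a1 (log2 fold change -0.76), while Pdgfra (-0.24) and Dcn (0.38, higher in every caMNK library) did not pass. The 4 listed fibroblast genes, with most reads from Col1a1, summed to 123 to 160 CPM in caMNK and 208 to 211 CPM in pBABE. Of 3 tested endothelial markers 1 fell, Cdh5 (log2 fold change -1.43). The other tested endothelial markers, Pecam1 (1.07) and Tek (0.82), did not pass, and the median of the 3 was 0.82, although their list summed to 3.54 to 3.63 CPM in caMNK and 5.47 to 9.48 CPM in pBABE. Of 2 tested leukocyte markers 0 passed: Csf1r (12.3 CPM in caMNK, 12.0 CPM in pBABE, log2 fold change 0.04) and Cd68 (0.68). The 1 tested keratinocyte marker, Krt10 (0.40), did not pass either. Cd68 and Krt10 were higher in every caMNK library than in both pBABE libraries. Summed over 13 mitochondrial mRNAs, the libraries held 18772 to 21665 CPM in caMNK and 12290 to 13533 CPM in pBABE, and 6 of the 10 tested ones rose, as did 5 of 8 tested nuclear non-coding RNAs (1 fell). Their part in the results below was not tested.

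Start regions of the genes are shown because Capicua and the PEA3 factors act there. RefSeq windows on GRCm38.p6, from 250 bases before to 50 after a transcription start, were found for 7 of the genes in 9 windows and were searched on both strands. Spry4, Etv4 and Phlda1 were not searched. Of the Capicua octamer only the spellings TGAATGAA, TGAATGGA, TCAATGAA and TCAATGGA were searched. A match lay in 1 window each of Spry2 and Spred3, and in 3.84% of all 32851 windows. Spellings that end otherwise, such as TGAATGGG, were not searched. TGAATGGG stands in small letters in the Etv5 window below, so lack of a match there does not mean lack of any Capicua site. The heptamer bound by PEA3 factors (AGGAAGT) lay in windows of Etv1, Etv5 and Spred2, and in 9.35% of all windows, while the AP-1 site TGANTCA was in none of the 9 and in 7.81% of all. These motifs do not overlap one another in the windows shown, and a match is a run of letters, not a measured binding site. The windows of Spry2 (chr14:105896770-105897069, minus strand), Spred3 (chr7:29168598-29168897, minus strand) and the downstream of 2 starts of Etv5 (chr16:22438319-22438618, minus strand) are given 5′ to 3′ with the matches in capitals, the octamer in the first 2 (on the opposite strand in Spry2) and the heptamer in the third.
Spry2: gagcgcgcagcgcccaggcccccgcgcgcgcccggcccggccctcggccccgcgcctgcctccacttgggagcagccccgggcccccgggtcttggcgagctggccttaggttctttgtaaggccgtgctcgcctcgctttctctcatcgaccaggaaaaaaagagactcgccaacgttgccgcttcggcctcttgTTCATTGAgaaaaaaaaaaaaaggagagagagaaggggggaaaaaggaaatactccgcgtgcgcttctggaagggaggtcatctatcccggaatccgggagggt
Spred3: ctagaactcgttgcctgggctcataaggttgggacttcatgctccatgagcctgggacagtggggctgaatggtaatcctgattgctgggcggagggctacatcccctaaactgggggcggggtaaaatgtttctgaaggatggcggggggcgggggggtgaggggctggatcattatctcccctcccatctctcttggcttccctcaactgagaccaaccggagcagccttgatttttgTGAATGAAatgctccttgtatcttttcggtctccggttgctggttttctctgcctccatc
Etv5: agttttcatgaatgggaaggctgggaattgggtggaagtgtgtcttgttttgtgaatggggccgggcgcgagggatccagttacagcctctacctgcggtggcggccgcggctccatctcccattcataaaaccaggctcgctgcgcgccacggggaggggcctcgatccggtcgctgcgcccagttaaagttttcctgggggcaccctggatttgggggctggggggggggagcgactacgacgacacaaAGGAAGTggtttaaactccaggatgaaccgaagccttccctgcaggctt

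Spry4 and Phlda1 were higher in caMNK than in pBABE, and none of the 10 genes was lower at the threshold used. Reads per gene were compared with edgeR's quasi-likelihood test, and a gene is called where its Benjamini-Hochberg adjusted p over 17026 tested genes is below 0.05. In that comparison 4.42% of all tested genes were called higher and 3.52% lower (7.94% in either direction), against 2 and 0 of the 10 genes. Without regard to the test, 4 of the 10 (Spry2, Spry4, Spred3 and Phlda1) lay higher in every caMNK library than in both pBABE libraries, as did 22.3% of all tested genes. Spry1 lay lower in every caMNK library, as did 22.6% of all, and the other 5 overlapped. The share of the 10 whose groups did not overlap, 50%, was close to the 44.9% of all tested genes. The median log2 fold change (caMNK over pBABE) of the 10 was 0.05, beside -0.0021 over all tested genes.

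**Figure D1:**
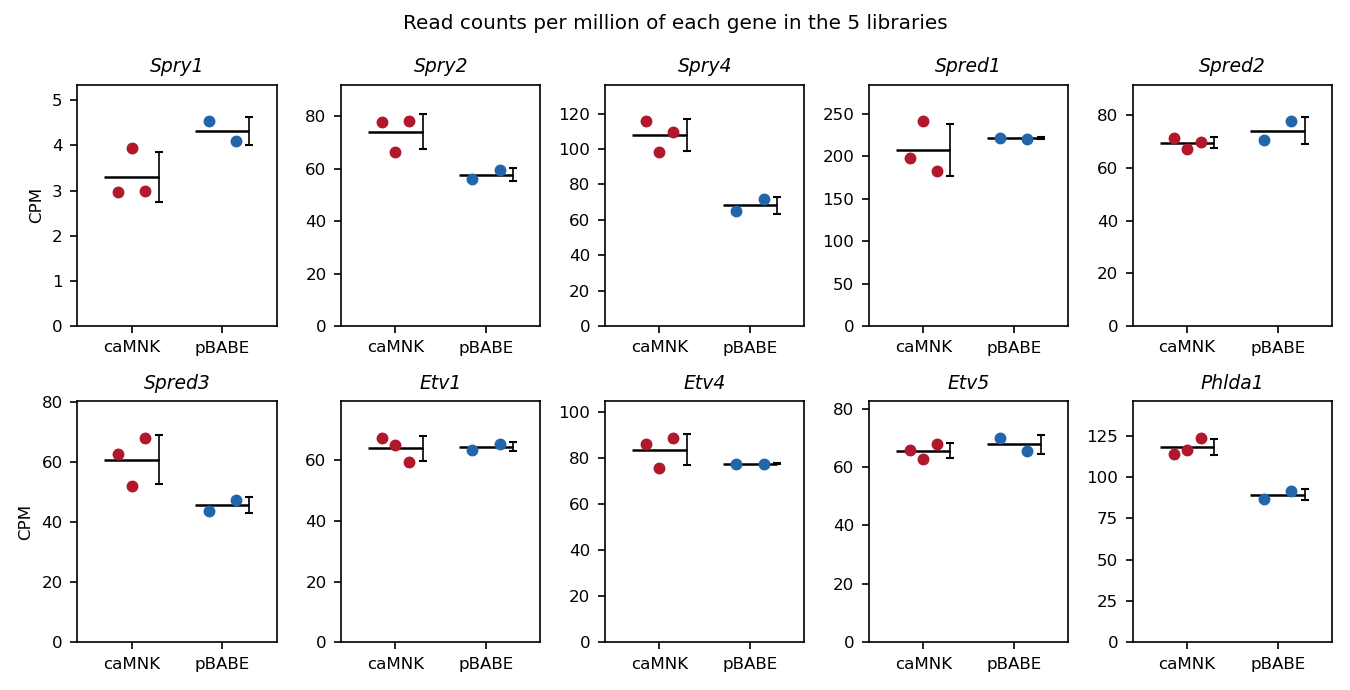
CPM (TMM-scaled, linear axis from 0, own scale per gene) in each caMNK (red) and pBABE (blue) library, with the mean as a line and the SD as a bar. Points of caMNK lie wholly above those of pBABE for Spry2, Spry4, Spred3 and Phlda1 and wholly below for Spry1, and they overlap for the other 5 genes.

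Spry4 was the one Sprouty gene that passed the test. It is located at 38586247 to 38601415 of chromosome 18, minus strand (GENCODE M21, GRCm38), with its coding sequence in 1 exon, as in Spry1 and Spry2. It measured 116, 98.4 and 109.8 CPM in caMNK replicates 1, 2 and 3, and 64.9 and 71.7 CPM in pBABE replicates 1 and 2. The lowest caMNK library stood well clear of the higher pBABE library. The fitted rise was 1.58-fold (log2 fold change 0.66, SE 0.102, 95% interval 0.43 to 0.89, edgeR adjusted p = 0.0103), rank 238 of all tested genes by p. Its call was lost without caMNK replicate 1 (log2 fold change 0.61, adjusted p = 0.0579), pBABE replicate 1 (0.58, 0.176) or pBABE replicate 2 (0.73, 0.0881).

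Spry2, the family member reported as a substrate of MNK1, lies on chromosome 14 from 105891947 to 105896819 on the minus strand. It had 78.0, 66.4 and 78.1 CPM in caMNK and 56.0 and 59.6 CPM in pBABE. Every caMNK library was the higher, but by a margin of only a few CPM for caMNK replicate 2. The log2 fold change was 0.36 (SE 0.102, 95% interval 0.13 to 0.59), and its edgeR adjusted p of 0.0667 missed the threshold. It passed by DESeq2 (adjusted p = 0.0404), with total-count scaling (0.0493), with rare genes kept in the fit (0.0235) and with caMNK replicate 2 left out (0.000345).

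Spry1 (chromosome 3, 37639947 to 37644598, plus strand) was scarce, with 85, 192 and 111 counts in caMNK and 189 and 132 counts in pBABE. These gave 2.96, 3.95 and 3.00 CPM in caMNK and 4.53 and 4.09 CPM in pBABE. The ranges do not touch, but caMNK replicate 2 came within 0.2 CPM of the lower pBABE library. The log2 fold change was -0.37 (SE 0.181, 95% interval -0.79 to 0.04, edgeR adjusted p = 0.233), and without caMNK replicate 2 it was -0.54 (adjusted p = 0.0222). Gm42922, an unclassified annotated gene on the other strand, overlaps Spry1 over 710 bp and had 14.1% as many counts, and such reads cannot be told apart. Of the related Sprouty gene Spry3, no library had more than 6 counts.

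Summed over the 3 Sprouty genes, the libraries held 197, 169 and 191 CPM in caMNK and 125 and 135 CPM in pBABE. Spry4 made up 58.8%, 58.3% and 57.5% of these reads in caMNK, and 51.7% and 53.0% in pBABE. The share of Spry2 was 39.7%, 39.3% and 40.9% in caMNK and 44.7% and 44.0% in pBABE, and that of Spry1 between 1.51% and 2.34% in caMNK and between 3.02% and 3.61% in pBABE. The balance thus lay further towards Spry4 in each caMNK library than in either pBABE library. The log2 ratio of Spry4 to Spry1 counts averaged 5.03 ± 0.348 in caMNK and 3.98 ± 0.206 in pBABE, and that of Spry4 to Spry2 averaged 0.54 ± 0.0445 in caMNK and 0.24 ± 0.0382 in pBABE (SD, n = 3 and 2). Of 5 ratios between family members examined, both of these and Etv4 to Etv5 were separated between the groups, and each gave an exact permutation p of 0.2 (two-sided, 0.333 adjusted over the 5), the smallest that 3 against 2 libraries allow.

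None of the 3 Spred genes passed the test. Spred3 (chromosome 7, 29158829 to 29170411, minus strand), the third and least studied of the RAS-inhibiting Spreds, measured 62.5, 51.9 and 68.0 CPM in caMNK and 43.9 and 47.5 CPM in pBABE. All caMNK libraries were the higher, with caMNK replicate 2 nearest to pBABE. Its log2 fold change was 0.41 (SE 0.123, 95% interval 0.13 to 0.69) at an edgeR adjusted p of 0.0765. Like Spry2, it passed by DESeq2 (adjusted p = 0.0324), with rare genes kept (0.00756) and with caMNK replicate 2 left out (0.000160). The testis gene Ggn overlaps Spred3 by 202 bp and had 4.42% as many counts.

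Spred1 (chromosome 2, 117121374 to 117182279, plus strand), the gene mutated in Legius syndrome, had the most reads of the 10. It measured 199, 241 and 183 CPM in caMNK and 222 and 221 CPM in pBABE. The pBABE libraries were all but equal, and the caMNK libraries lay on both sides of them. The log2 fold change was -0.09 (SE 0.120, 95% interval -0.37 to 0.18, edgeR adjusted p = 0.681). Without caMNK replicate 2, the one library above pBABE, it was -0.22 (adjusted p = 0.0275).

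Spred2 (chromosome 11, 19924375 to 20024026, plus strand) measured 71.5, 67.2 and 69.9 CPM in caMNK and 70.6 and 77.7 CPM in pBABE, so that 1 caMNK library lay within the pBABE range. Its log2 fold change was -0.09 (SE 0.0867, 95% interval -0.29 to 0.10, edgeR adjusted p = 0.548). The sum over the 3 Spred genes was 333, 361 and 321 CPM in caMNK, and 337 and 346 CPM in pBABE. Spred3 supplied 18.8%, 14.4% and 21.2% of it in caMNK, and 13.0% and 13.7% in pBABE.

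None of the 3 PEA3 factor genes passed the test. Etv4 (chromosome 11, 101769742 to 101785371, minus strand) measured 86.2, 75.8 and 88.7 CPM in caMNK and 77.5 and 77.3 CPM in pBABE. The caMNK libraries fell on both sides of the pBABE pair, with replicate 2 below it. Its log2 fold change was 0.11 (SE 0.0950, 95% interval -0.11 to 0.33, edgeR adjusted p = 0.513).

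Etv5 (chromosome 16, 22381309 to 22439719, minus strand) measured 65.9, 62.7 and 67.8 CPM in caMNK and 70.0 and 65.5 CPM in pBABE. The groups overlapped, and the log2 fold change was -0.05 (95% interval -0.24 to 0.15, edgeR adjusted p = 0.766). Etv1 (chromosome 12, 38779380 to 38870484, plus strand), which encodes a factor that acts as an oncogene in some melanomas, measured 67.3, 65.1 and 59.3 CPM in caMNK and 63.2 and 65.3 CPM in pBABE. The pBABE values lay inside the caMNK range, and the log2 fold change was -0.01 (95% interval -0.21 to 0.20, edgeR adjusted p = 0.964). With total-count scaling, which shifts the median of all genes to 0.05, the signs of Etv1 and Etv5 turned (0.05 and 0.01).

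For the PEA3 genes the intervals leave room for a rise of at most 0.33 (Etv4), 0.20 (Etv1) and 0.15 (Etv5) on the log2 scale, beside a lower bound of 0.43 for Spry4. The difference between these genes and Spry4 was not tested. Their summed reads were 219, 204 and 216 CPM in caMNK and 211 and 208 CPM in pBABE. The log2 ratio of Etv4 to Etv5 was 0.35 ± 0.0658 in caMNK and 0.19 ± 0.0636 in pBABE (SD, n = 3 and 2). That of Etv1 to Etv5 differed by 0.04 (caMNK minus pBABE, exact permutation p = 0.8, two-sided) and that of Spred1 to Spred2 by -0.01 (p = 1).

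**Figure D2:**
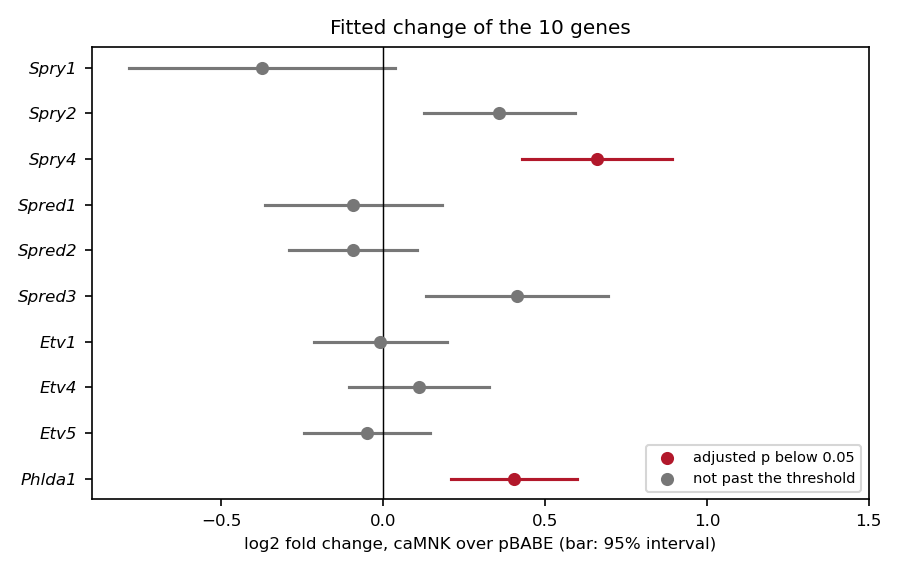
Log2 fold change of caMNK over pBABE from edgeR for each of the 10 genes (point) with its 95% interval (bar), red where the adjusted p is below 0.05. Spry4 and Phlda1 are red, the intervals of Spry2 and Spred3 also lie above 0 without the adjusted p passing, and those of the 3 PEA3 genes span 0.

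Phlda1 (chromosome 10, 111506286 to 111508645, plus strand) measured 114, 117 and 124 CPM in caMNK and 86.8 and 91.6 CPM in pBABE. All 3 caMNK libraries were well above both pBABE libraries and close to each other. The fitted rise was 1.32-fold (log2 fold change 0.40, SE 0.0859, 95% interval 0.21 to 0.60, edgeR adjusted p = 0.0271). The call was lost without caMNK replicate 1 (log2 fold change 0.43, adjusted p = 0.105), pBABE replicate 1 (0.35, 0.338) or pBABE replicate 2 (0.44, 0.209).

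Much of the Phlda1 signal is shared with another annotation. Gm28592, a long non-coding RNA gene on the opposite strand, lies wholly inside Phlda1 over 1088 bp and was chosen for mention after its values were seen. The near-equal counts of other nested genes, such as Gpx8 and Cdc20b below, leave it likely but not stated that reads in overlaps were counted for both genes. Gm28592 had 71.4%, 62.3% and 71.4% as many counts as Phlda1 in caMNK, and 74.9% and 76.3% in pBABE. Gm28592 itself measured 81.3, 72.6 and 88.3 CPM in caMNK and 65.0 and 69.8 CPM in pBABE (log2 fold change 0.26, edgeR adjusted p = 0.160). If the reads of Gm28592 are all counted for Phlda1 too, the Phlda1 counts beyond them came to 32.6, 44.0 and 35.4 CPM in caMNK, and 21.8 and 21.8 CPM in pBABE. On that reading both portions were higher in every caMNK library, and the strand of the shared reads cannot be told. The related gene Phlda3, a p53 target that restrains AKT, had a log2 fold change of -0.07 (95% interval -0.35 to 0.21, edgeR adjusted p = 0.775).

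Per kb of gene, Phlda1 had the highest count of the 10 in both groups, reads shared with Gm28592 included. Its counts beyond those of Gm28592 came to 15.8 CPM per kb of the whole gene in caMNK and 9.23 CPM per kb in pBABE. That length includes the stretch whose reads were taken away, so these values are too low for the rest of Phlda1. Whether Phlda1 would keep its first place without the shared reads was not tested. On the scale of CPM per kb of deposited gene length, which for most genes is the whole span with introns, the order of the means in caMNK was Phlda1 (range 48.3 to 52.4), Spry2 (15.2), Spry4 (7.20), Spred3 (5.52), Etv4 (5.35), Spred1 (3.41), Etv5 (1.12), Etv1 (0.719), Spry1 (0.710) and Spred2 (0.698). In pBABE it was Phlda1 (37.8), Spry2 (11.9), Etv4 (4.95), Spry4 (4.55), Spred3 (4.15), Spred1 (3.64), Etv5 (1.16), Spry1 (0.927), Spred2 (0.744) and Etv1 (0.724). Spry4 and Spred3 stood above Etv4 in the caMNK means and below it in the pBABE means. In caMNK the ranges of Spred3 and Etv4 overlapped, as did those of the lowest 3 genes, Etv1, Spry1 and Spred2, and in pBABE those of Spred2 and Etv1 did. Exons make up 62.5% of the span of Spry1 but 4.64% of that of Spred2, so this order need not be that of transcript levels.

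Gene length differed between the genes whose groups separated and those whose groups overlapped. The 4 with every caMNK library above pBABE had deposited lengths of 2360 (Phlda1), 4871 (Spry2), 11013 (Spred3) and 15001 (Spry4) bases, whereas Etv4, Etv5, Spred1, Etv1 and Spred2, whose groups overlapped, were 15630, 58411, 60906, 88836 and 99652 bases long. Spry1, at 4652 bases, was the short gene that lay lower. Among all tested genes of up to 15001 bases (n = 7785), a length chosen after seeing these values, the median log2 fold change was 0.04, with 4.89% called higher and 2.45% lower. Among the 9241 longer genes the median was -0.03, with 4.03% called higher and 4.42% lower. Every caMNK library lay above both pBABE libraries for 24.5% of the shorter genes and below both for 17.1%. For the longer genes these shares were 20.4% and 27.2%, so over all tested genes separation was not rarer among longer genes. Exons cover 93.4% of the span of Phlda1, 31.3% of that of Spry4 and 4.64% of that of Spred2, so the counts of the long genes can hold more intronic reads. The part of such reads in the result was not tested.

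**Figure D3:**
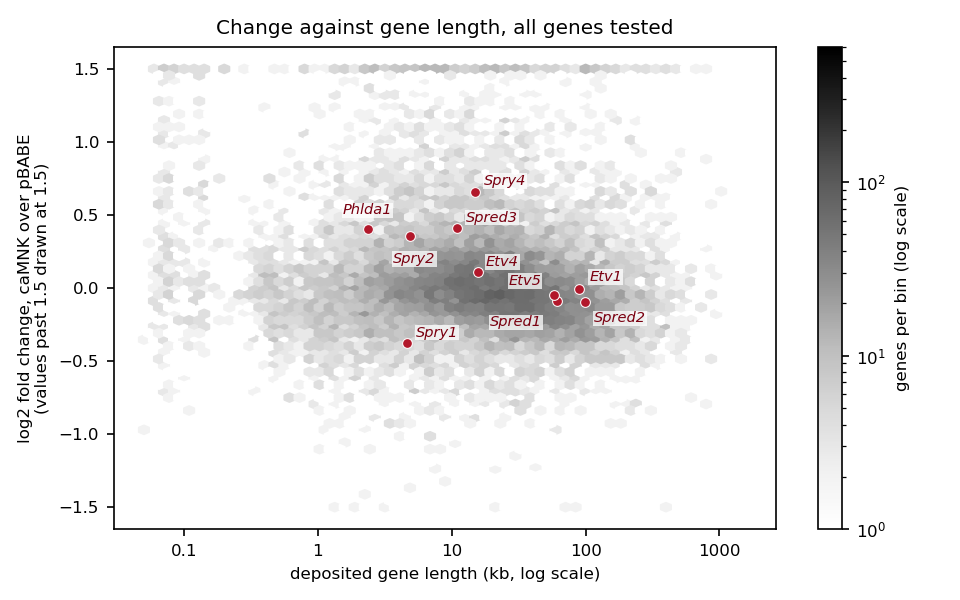
Log2 fold change of caMNK over pBABE against deposited gene length (kb, log axis) for all 17026 tested genes (grey bins) with the 10 genes in red. Phlda1, Spry2, Spred3 and Spry4 sit above 0 at up to 15001 bases, and the 5 genes of 15630 bases or more sit near 0.

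The number of the 10 called depended on single libraries. caMNK replicate 2 had the lowest caMNK value for 6 of the 10 genes and the highest for 2, Spry1 and Spred1. Replicate 3 was lowest for 2 and highest for 5, and replicate 1 lowest for 2 and highest for 3. The matching shares over all tested genes were not taken. Without caMNK replicate 2, 4 of the 10 rose (Spry2, Spry4, Spred3 and Phlda1) and 2 fell (Spry1 and Spred1). In that fit 2325 (13.9%) and 2617 (15.7%) of all tested genes were called higher and lower. Without caMNK replicate 1, pBABE replicate 1 or pBABE replicate 2, none of the 10 passed by edgeR, and overall 175, 11 and 37 genes were called higher and 80, 12 and 18 lower. Without caMNK replicate 3, Spry4 and Phlda1 rose as they did with all libraries.

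**Figure D4:**
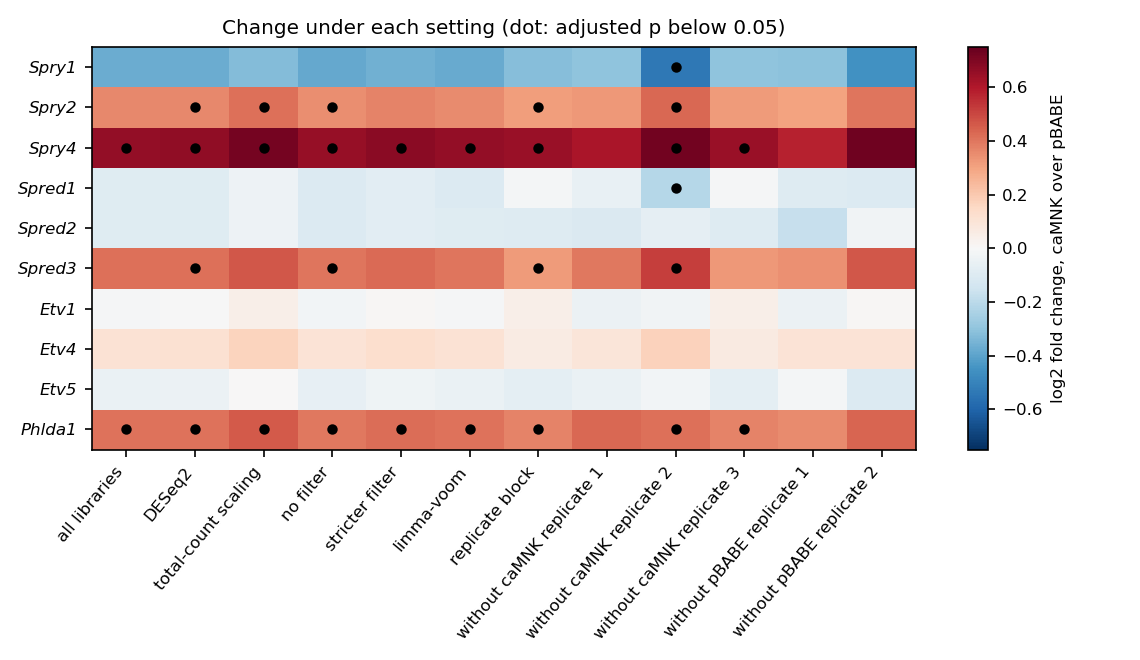
Log2 fold change of caMNK over pBABE (colour) for the 10 genes under each way of processing the counts, with a black dot where the adjusted p is below 0.05. Spry4 and Phlda1 carry a dot in all columns but those without caMNK replicate 1, pBABE replicate 1 and pBABE replicate 2, and the column without caMNK replicate 2 has 6 dots.

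Among 21 other genes that ERK is known to induce, 8 rose and 1 fell, where 4.42% of all tested genes rose and 3.52% fell. Their median log2 fold change was 0.45, beside -0.0021 over all tested genes. Egr1, an immediate early transcription factor, measured 101 ± 13.9 CPM in caMNK and 23.1 ± 5.44 CPM in pBABE (SD, n = 3 and 2; log2 fold change 2.13, edgeR adjusted p = 0.00170). The ERK phosphatase gene Dusp6 measured 161 ± 2.40 CPM in caMNK and 99.8 ± 0.281 CPM in pBABE (0.69, 0.00510), and the EGF receptor ligand gene Areg 147 ± 22.8 CPM in caMNK and 71.2 ± 9.39 CPM in pBABE (1.05, 0.00811). The AP-1 gene Fos was the one that fell, with 2.42 ± 0.649 CPM in caMNK and 10.5 ± 0.555 CPM in pBABE (-2.15, 0.00283). The other rises, chosen for mention after their values were seen, were in Dusp5 (0.76), Egr2 (1.21), Myc (0.38), Ier3 (0.59) and Ereg (0.69). With caMNK replicate 1 left out 3 of them rose, and with pBABE replicate 1 or pBABE replicate 2 left out 1 did. The summed mitochondrial mRNAs given above were also higher in each caMNK library, with 6 of 10 tested ones past the threshold.

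Of the cascade that leads to ERK, from adaptors to ERK-activated kinases, 0 of 26 tested genes passed by edgeR (9 had an unadjusted p under 0.05, as had 25.9% of all tested genes). DESeq2 called 1 higher and 2 lower, and over all genes 5.54% higher and 4.48% lower. The median log2 fold change was -0.09. The kinase genes Rps6ka2 and Rps6ka1 had log2 fold changes of -0.45 (edgeR adjusted p = 0.0531) and 0.61 (0.0622). Shoc2, a scaffold of RAF activation whose end overlaps Bbip1, had -0.36 (0.0765), and Ptpn11, the phosphatase SHP2 that Sprouty opposes, had -0.26 (0.0891). Without caMNK replicate 2, 3 of these genes rose and 9 fell, where 13.9% of all genes rose and 15.7% fell.

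Among 16 tested RAS GTPase activators, Sprouty and Spred partners and other receptor brakes, 1 rose and 0 fell, with a median log2 fold change of -0.17. Of all tested genes, 4.42% rose and 3.52% fell. The riser was Cblb, a ubiquitin ligase of the Cbl family that Sprouty proteins bind, with 40.8 ± 0.939 CPM in caMNK and 27.5 ± 1.79 CPM in pBABE (log2 fold change 0.56, edgeR adjusted p = 0.0116). Leaving out caMNK replicate 1 gave Cblb an adjusted p of 0.0696, leaving out pBABE replicate 1 gave 0.138 and leaving out pBABE replicate 2 gave 0.171, with its log2 fold change at 0.50 to 0.62 over all 5 omissions. The receptor inhibitor gene Lrig1 had -0.30 (0.0553), and the ubiquitin ligase genes Nedd4 and Siah2, both known to act on Sprouty proteins, had -0.29 (0.0918) and -0.30 (0.111). Without caMNK replicate 2, 1 of the 16 rose and 7 fell, beside the same 13.9% and 15.7% of all genes.

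Of 12 tested ETS factors outside the PEA3 group, 0 passed by edgeR, 0 passed by DESeq2, and 1 had an unadjusted p under 0.05, against 25.9% of all tested genes. Elk4, a partner of serum response factor, had a log2 fold change of 0.27 (edgeR adjusted p = 0.0921), Ets2 0.16 (0.264), Elk3, which overlaps Cdk17, -0.16 (0.244) and Elf1, which overlaps Wbp4, 0.21 (0.260). Among 7 genes of Capicua and the COP1 ligase that degrades PEA3 factors, 1 rose, as did 4.42% of all tested genes. It was Atxn1, a Capicua partner that overlaps Gmpr, at 28.8 ± 1.08 CPM in caMNK and 21.3 ± 0.303 CPM in pBABE (log2 fold change 0.44, edgeR adjusted p = 0.0278). For Atxn1 the same omissions gave 0.137, 0.277 and 0.264, with a log2 fold change of 0.41 to 0.46 over all 5. Cic itself had -0.16 (0.399), its partner gene Atxn1l -0.18 (0.257) and Det1, of the COP1 ligase, -0.18 (0.421). The group's median was -0.12.

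**Figure D5:**
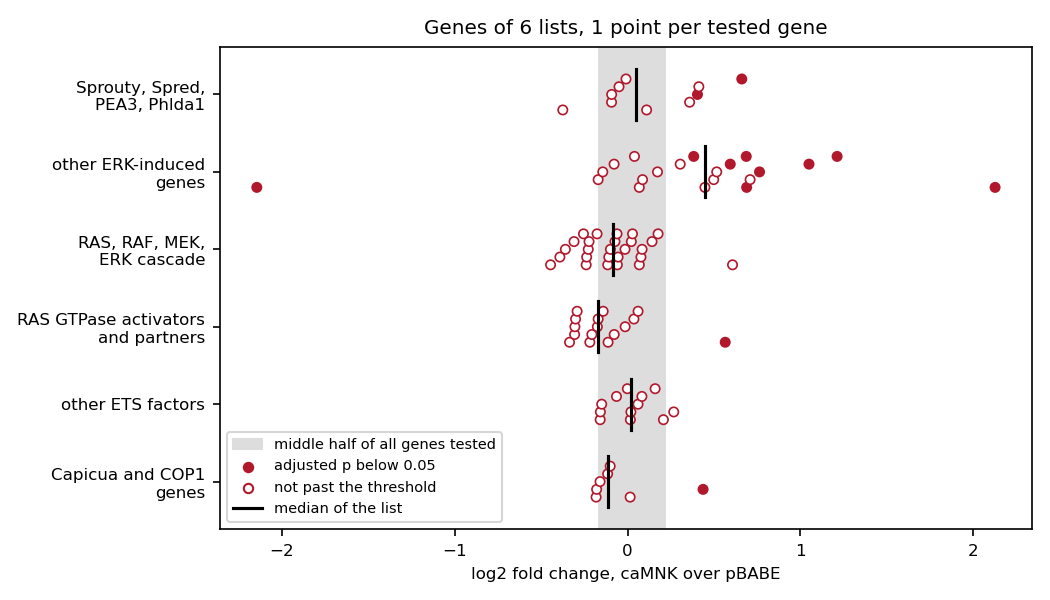
Log2 fold change of caMNK over pBABE for each tested gene of 6 lists (1 point per gene, filled where the adjusted p is below 0.05), with the list median as a black line and the interquartile range of all tested genes in grey. The ERK-induced genes have a median of 0.45 and 9 filled points, the 10 genes described a median of 0.05 and 2 filled points.

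The patterns most like that of Spry4 over the 5 libraries, by the root mean square difference of log2 CPM centred on pBABE among 9493 genes of mean log2 CPM 3 or more, were those of the cyclin L2 gene Ccnl2 (difference 0.0397) and the small nucleolar RNA host gene Snhg17 (0.0434). Ccnl2 measured 76.8, 68.2 and 73.5 CPM in caMNK and 46.0 and 47.9 CPM in pBABE, with the same low caMNK replicate 2 as Spry4. Nearest to Phlda1 were Gpx8 (0.0253), a peroxidase gene of the endoplasmic reticulum, and Cdc20b (0.0254). Gpx8 overlaps Cdc20b over 3658 bp and their counts, 22750 and 22830 over the 5 libraries, are nearly the same, so this is 1 pattern. Gpx8 measured 130.0, 133 and 139 CPM in caMNK and 101 and 101 CPM in pBABE.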

How the data were processed

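Total RNA was prepared with a Qiagen RNeasy Plus Mini Kit and sequenced as Illumina TruSeq Stranded Total RNA libraries, per the labels' protocols. The authors deposited raw read counts per gene with a gene length, 1 table per library. STAR 2.5.3, featureCounts 1.5.3, Trimmomatic 0.32, SAMtools 0.1.19, FastQC 0.11.2, DESeq2 and build mm10 are named in the submitters' processing notes. For the annotation release and strand setting, the answer is not given in the sources used here. The deposited length equalled the genomic span in GENCODE M21 for 37301 of 44145 shared symbols, so the counts appear to cover introns and, from nested genes with near-equal counts, reads of overlaps for each gene.

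Groups and replicate numbers came from the sample titles. Nothing says how the cultures were kept apart, so p-values measure the spread between these libraries. Counts were fitted with edgeR 4.0.16 (R 4.3.3): filterByExpr, TMM scaling, robust quasi-likelihood F test on all 5 libraries, group as the only term, Benjamini-Hochberg adjustment over 17026 genes. Each SE was derived from the fold change and its F statistic, and CPM uses the TMM-scaled totals. The fit was tested on simulated data. Alternatives used DESeq2 1.42.0, limma-voom 3.58.1, total-count scaling, other filters, a replicate term and each library left out. Ratios used counts plus 0.5.

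The 10 genes and the gene lists were chosen with earlier results of these data known, and the motifs with the windows in view. Named are the 10 genes, Mknk1, the 4 members of each list with the lowest p, and the 2 genes most like each called gene, passing over symbols of predicted genes.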

Additional observations from a re-analysis of the deposited data

How the results depend on the processing

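Spry4 and Phlda1 kept their calls under each alternative that left no library out of the fit, with log2 fold changes of 0.65 to 0.72 and 0.37 to 0.46. Of all 17026 tested genes, 753 were called higher and 599 lower. Without a filter on low counts 27978 genes were tested, and 1591 were called higher and 1330 lower. Total-count scaling gave 999 of 17026 tested genes higher and 465 lower (68.2% of the called genes higher, against 55.7% with TMM) and 3 of the 10 genes higher. By DESeq2, which called 944 genes higher (5.54%) and 763 lower (4.48%), and without a filter, 4 of the 10 were called higher. In the ERK cascade 1 gene was called higher by DESeq2, with total-count scaling and without a filter, and 2 and 3 lower by DESeq2 and without a filter. Among the RAS brakes 1 was called lower by DESeq2 and 4 without a filter.

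The labels give both groups replicates 1 and 2, without saying that a number marks a shared culture or day. Deviations of same-numbered libraries from their group means correlated at -0.0524 and -0.0257 over 17026 genes, so the numbers were not taken to pair the libraries. Replicate 3 exists only in caMNK, so a block by replicate number leaves the group effect to replicates 1 and 2 of each group. With that block, 1477 of 17026 tested genes were called higher and 1231 lower, with 4 of the 10 genes higher. In the ERK cascade 1 gene was called higher and 2 lower, with 1 of the other ETS factors higher and 1 of the RAS brakes lower. Etv1 turned sign with the block (0.0417), with total-count scaling (0.0452), with the stricter filter (0.00601), without caMNK replicate 3 (0.0438) and without pBABE replicate 2 (0.00977), and ran from -0.0443 to 0.0438 with 1 library left out. Etv5 turned with total-count scaling (0.00517), and Phlda3 without caMNK replicate 2 (0.0400, range with 1 library left out -0.162 to 0.0400). The cause was not tested.

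Leaving out 1 library at a time gave 11 to 2325 genes called higher and 12 to 2617 lower, and 0 to 4 of the 10 higher and 0 to 2 lower. The ranges were 0 to 3 higher and 0 to 9 lower for the ERK cascade, 1 to 13 higher for the ERK-induced genes, 0 to 1 higher and 0 to 1 lower for the other ETS factors, 0 to 1 higher for the Capicua and COP1 genes, and 0 to 1 higher and 0 to 7 lower for the RAS brakes. The ratio of Spred1 to Spred2 differed by -0.149 to 0.0794 (log2, caMNK minus pBABE; -0.01 with all libraries), and that of Etv1 to Etv5 by -0.0329 to 0.116 (0.04 with all), so neither has a settled sign. Where pBABE is left with 1 library, it is assumed to vary like caMNK. Spry1, at 85 to 192 counts a library, is the gene of the 10 whose precision depth limits most.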
